A study of Mus musculus with 30 samples.

Results

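The 6 libraries described here measured antibody heavy-chain (Igh) rearrangement in a mouse v-Abl pro-B line with and without a treatment that degrades WAPL, out of 30 libraries in the series. They are, by their labels, the 3 treated libraries (WT_DoxIAA_Abl) and the 3 untreated libraries (WT_untreat_Abl) of the parent line. Both groups were C57BL/6 v-Abl pro B cells of the genotype RAG1-/-, Emu-Bcl2, WAPL degron and single Igh, infected with a RAG1/2 retrovirus and grown in RPMI1640 with 15% FBS. The untreated cells were held for 4 days in 3 µM STI-571, the ABL kinase inhibitor that arrests v-Abl lines in G1. The treated cells had 1 day of 3 µM STI-571 and then 3 days of 150 µM IAA (auxin) and 2 µg/mL doxycycline (Dox) with the same STI-571. The line is a transformed cell line, not primary cells, and its replicates are not stated to be separate cultures, so the errors below may hold technical spread only. The molecule was genomic DNA, so neither the WAPL protein nor any marker of the cell type could be checked in these files, and auxin and doxycycline were always given together.

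WAPL removes cohesin from chromatin, and without it cohesin stays bound for longer and extrudes longer loops. In developing B cells the RAG endonuclease sits at a recombination centre over the JH segments and cuts at recombination signal sequences (RSSs) of segments that loop extrusion brings past it. A D segment is joined to JH first, and a V segment is joined to the resulting DJH afterwards. Primary pro-B cells bring V segments from the whole locus to the centre, whereas v-Abl lines use mainly the V segments close to the D end. Between them lies IGCR1, a control region with CTCF sites that limits extrusion into the V part.

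Each row of the files is 1 read that runs from a bait at JH4 into the DNA joined to it, so a row at a D segment marks a DJH join and a row at a V segment marks a VDJH join. The whole locus lies on the minus strand of chromosome 12 (mm9), from JH4 at chr12:114666725-114666778 to Ighv1-85, the last V segment, 2518 kb beyond Ighd1-1, with 21 D and 125 V segments tabulated. The V segments were split by distance from D into 3 parts of equal length, called nearest, middle and farthest. Untreated libraries held 139267, 140765 and 175957 rows, and treated libraries 21856, 31275 and 28946. V and D joins made up 98.6% ± 0.031 (SD, n = 3) of untreated and 98.0% ± 0.112 of treated rows. Read sequences that occurred before in the same library were 51.6% to 52.3% of untreated and 33.1% to 38.2% of treated rows, and values with each counted once are given for the V share, the inverted share, the JH and nearest V zones, the Ighd2 family, Ighv2-2, Ighv5-4 and Ighv2-3.

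The segments that the results turn on differ in their RSSs, which are shown first because they are the sites that RAG cuts. Each is written 5′ to 3′ on the minus strand from the reference genome of that build (mm9, NCBIM37), with the heptamer next to the segment and the nonamer in capitals. The 12-base spacer belongs to D segments and the 23-base spacer to V segments. For D segments only the signal on the JH side was read. The first is at chr12:114668711-114668738, the second at chr12:114689034-114689061, the third at chr12:114720353-114720380, and the V signals are at chr12:114816676-114816714, chr12:114826439-114826477 and chr12:116930061-116930099.
Ighd4-1: CACGGTGacacgtggctcaACAAAAACC
Ighd2-8: CACAGTGatatatccagcaACAAAAACC
Ighd1-1: CACAGTGctatatccatcaGCAAAAACC
Ighv5-2: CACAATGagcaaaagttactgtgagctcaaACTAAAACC
Ighv2-2: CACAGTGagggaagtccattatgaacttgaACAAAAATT
Ighv1-70: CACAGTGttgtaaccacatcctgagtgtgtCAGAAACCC
The signal of Ighd2-8 is the same in Ighd2-3, Ighd2-4, Ighd2-5, Ighd2-6 and Ighd2-7, so the 6 members of this family differ in position and not in these letters. Against the consensus heptamer CACAGTG and nonamer ACAAAAACC, the V signals had a median of 2 mismatches in the nearest V part and of 4 in both the middle and the farthest part. The nonamer was read only at a spacer of exactly 23 bases. A V signal with another spacer length can thus count more mismatches than it has, so these medians do not rank the strength of the signals. The heptamer was the consensus in 31 of 49, 32 of 40 and 27 of 36 V segments of these parts.

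A second feature separates the V parts. The core of the CTCF motif (CCA, any 2 bases, AG, any 2 bases, GGC), searched on both strands in the 200 bases past the signal, was found beside 29 of 49 V segments of the nearest part and beside 0 of 40 and 0 of 36 in the others, against 0.923% of 12137 windows of 200 bases that tile the V region. All 29 cores ran in the same direction as the segment. Those of Ighv5-2 and Ighv2-2 started 20 and 22 bases past the nonamer, and they are shown with the core in capitals because these were the V segments joined most often in untreated cells.
Ighv5-2 core: aggaCCAGCAGGGGGCgcgg
Ighv2-2 core: aggaCCAGCAGGGGGCagtg
A match describes the letters only, and binding of CTCF was not measured here.

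The treated cells joined V segments more often relative to D segments. V joins were 1.73%, 1.91% and 2.04% of V plus D joins in the untreated libraries. They were 9.16%, 9.17% and 9.15% in the treated libraries. The groups did not overlap, and the mean share was 1.89% ± 0.156 without and 9.16% ± 0.0076 with treatment (SD, n = 3), a difference of 7.27 percentage points. The exact two-sided permutation p was 0.1, the smallest that 3 against 3 libraries allow. Read names carry 2 run codes, and within the run that holds 2 libraries of each group the difference was 7.19 points. Counted once per read sequence, the share was 2.98% and 10.9%.

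**Figure D1:**
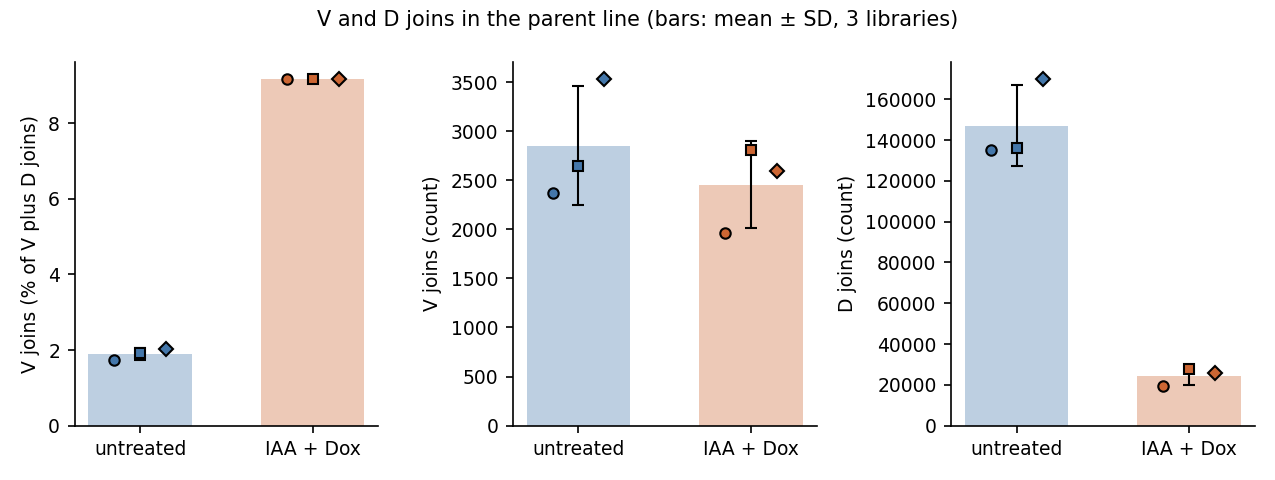
V joins as a percentage of V plus D joins (left), V joins (middle) and D joins (right) as counts of rows, in untreated and IAA plus Dox treated libraries; bars are means, error bars SD and points the 3 libraries. The treated libraries lie at 9.15% to 9.17% and the untreated ones at 1.73% to 2.04%, while the counts of V joins overlap.

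In rows, the difference between the groups lay in D joins. Untreated libraries held 2371, 2650 and 3533 V joins and treated libraries 1959, 2811 and 2599, and these counts overlap (exact permutation p = 0.5, n = 3 per group). D joins numbered 135035, 136150 and 169995 without and 19429, 27844 and 25790 with treatment. How much DNA went into each library is not given, so a lower count of D joins per library was not read as fewer joins per cell, and the comparisons below rest on shares and rows per 100000. V joins also came from similar numbers of distinct junctions, 1046 ± 146 and 984 ± 33.5 (SD, n = 3), where a distinct junction has its own position, orientation, trimming and inserted bases.

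Within D joins, the treated cells used the D segments near JH more and the far end less. Ighd1-1 (DFL16.1), the D at the far end of the main D cluster and next to IGCR1, took 73.5%, 73.9% and 72.4% of D joins in untreated libraries. It took 34.3%, 34.7% and 34% in treated libraries. The groups did not overlap, and the share fell by 1.09 on the log2 scale (SE 0.0478, limma voom adjusted p = 2.14e-14). Ighd4-1 (DQ52), which lies only 1.96 kb from JH4, took 1.80%, 1.96% and 2.08% without and 12.1%, 12.3% and 12.1% with treatment. All treated libraries lay above all untreated ones, at a log2 change of 2.65 (SE 0.0603, adjusted p = 4.6e-19).

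Of the 10 D segments tested between them 7 rose and 3 did not pass, and the rise was smaller with distance from JH within the Ighd2 family. Ighd3-2, at 19.6 kb from JH4, rose from 0.419% ± 0.0637 to 1.61% ± 0.436 of D joins (log2 1.97, SE 0.17). The Ighd2 (DSP2) family has 6 members with the same signal on the JH side. Its log2 changes were 1.69 for Ighd2-8 at 22.3 kb, 1.62 for Ighd2-7 at 28.2 kb, 1.61 for Ighd2-6 at 32.8 kb, 1.58 for Ighd2-5 at 37.5 kb, 1.22 for Ighd2-4 at 42.1 kb and 0.83 for Ighd2-3 at 46.8 kb. These 6 values follow the order of the segments along the chromosome, although those of Ighd2-8, Ighd2-7, Ighd2-6 and Ighd2-5 differ by less than the largest of their standard errors, 0.176. With repeated reads counted once the changes were 1.32, 1.24, 1.18, 1.19, 0.93 and 0.62 in the same order. Ighd2-3 took 16.0%, 15.8% and 16.8% of D joins without and 28.8%, 28.0% and 29.7% with treatment, which left it below Ighd1-1 in every library.

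Of the 12 D segments with enough joins to test, 8 rose (66.7% of those tested) and 1 fell (8.33%). The 3 that passed neither way were Ighd5-6, Ighd6-2 and Ighd6-1, which held 0.309% of D joins or less. Ighd6-1, the D next to Ighd1-1, took 0.294% ± 0.0389 and 0.309% ± 0.0625 (log2 0.04, SE 0.306, adjusted p = 0.908). Of the other 9 D segments, 7 had a few joins and 2, Ighd5-1 and Gm16968, had none in these 6 libraries. A share within D joins does not depend on the size chosen for a library. As junctions per 100000 rows, Ighd4-1 rose from 1885 ± 132 to 10837 ± 130 and the Ighd2 family from 23260 ± 623 to 45724 ± 817, but with library sizes set by the median of ratios over all segments every tested D was lower in treated cells (median log2 -3.18 against 1.28).

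**Figure D2:**
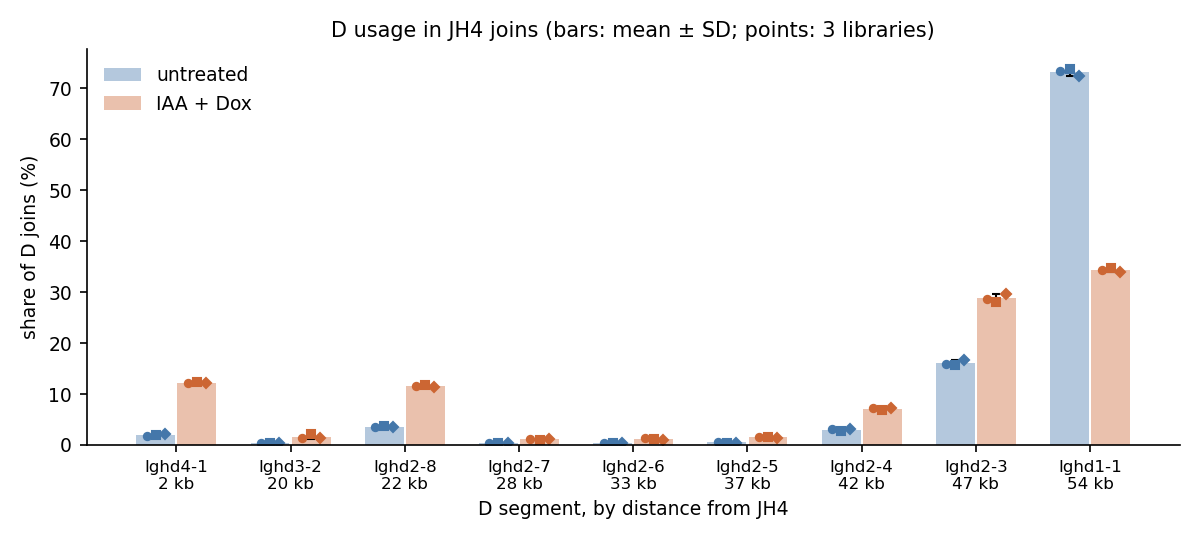
Share of D joins (%) of the 9 D segments that reached 1% in any library, ordered by distance from JH4; bars are means, error bars SD and points the 3 libraries. Ighd1-1 drops from 73.2% to 34.3% while each of the other 8 rises, Ighd4-1 to 12.2% and Ighd2-3 to 28.8%.

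The joints themselves were alike in some measures and differed in others. The commonest junction between Ighd1-1 and JH4 joined the untrimmed D end at chr12:114720381 to JH4 over 3 bases that both ends share, in capitals below, and it was 15.3% ± 0.200 of untreated and 14.8% ± 0.477 of treated Ighd1-1 joins (exact permutation p = 0.2, n = 3 per group). The next commonest had lost 1 base of the D and made up 11.2% ± 0.215 and 14.2% ± 0.645, with no overlap of the libraries (exact p = 0.1).
Commonest joint: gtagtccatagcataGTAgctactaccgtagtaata
Next joint: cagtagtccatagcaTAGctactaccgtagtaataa
Both reads run from the JH4 bait on the left into Ighd1-1 on the right. An untrimmed D end was seen in 42.3% ± 0.0958 and 43.2% ± 1.56 of Ighd1-1 joins. Over all D joins, those with inserted bases were 21.1% ± 0.163 without and 24.3% ± 0.856 with treatment, and blunt joins 26.2% ± 0.336 and 23.4% ± 0.50. Both pairs of groups were apart (exact p = 0.1 each), but among Ighd1-1 joins alone inserted bases were at 18.6% ± 0.200 and 18.6% ± 1.90.

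Joins in the inverted orientation, which deletional joining does not make, stayed rare among D joins. They were 0.0526%, 0.0852% and 0.0688% of D joins in untreated libraries. They were 0.237%, 0.183% and 0.209% in treated libraries, above every untreated value (difference 0.141 points, exact permutation p = 0.1, n = 3 per group). With repeated reads counted once they were 0.117% ± 0.0248 and 0.252% ± 0.0370, also with an exact p of 0.1. Among V joins the inverted share was 0.537% ± 0.130 and 0.638% ± 0.224, and the libraries overlapped.

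Most V joins lay at the end near D in untreated cells, and they were spread along the whole locus in treated cells. In all 3 untreated libraries the median V join lay 106 kb from Ighd1-1, at Ighv2-2. In the treated libraries the median lay at 1509, 1299 and 1509 kb, near the centre of the V region and apart from every untreated value (mean 1439 kb ± 121, exact permutation p = 0.1, n = 3 per group). The effective number of V segments, the count of equally used segments that would give the same diversity, was 8.24, 8.30 and 9.50 without and 59.2, 62.1 and 63.5 with treatment, after thinning each library to 1959 V joins. The number of V segments with any join was 57, 57 and 80 against 102, 103 and 99 in the whole libraries, although the treated ones held fewer rows.

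**Figure D3:**
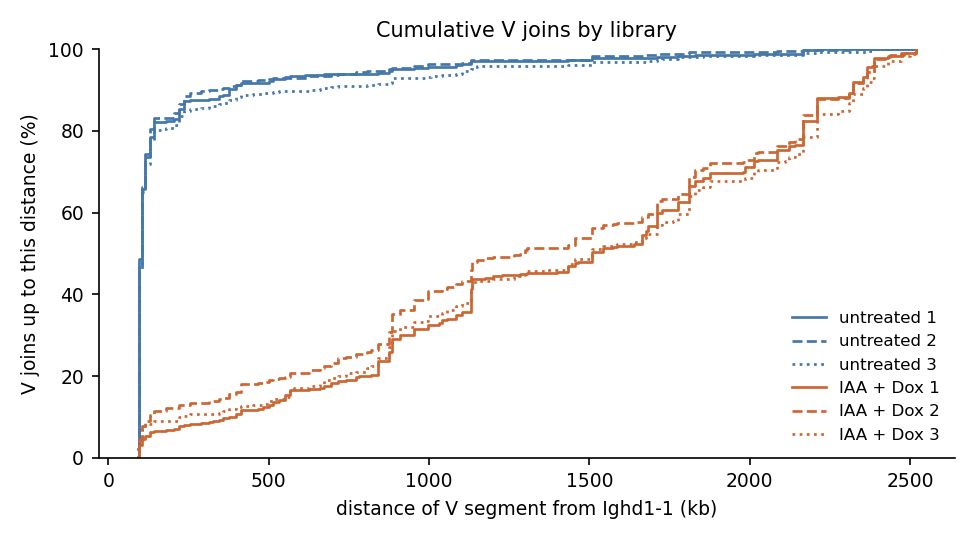
Cumulative share of V joins (%) against the distance of the V segment from Ighd1-1 (kb), 1 line per library. The 10 V segments nearest to D with joins hold 83.6% to 86.7% of untreated and 7.91% to 12.9% of treated V joins, and the treated lines climb along the whole region, with medians at 1299 to 1509 kb.

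The nearest V part, with 49 segments, held 95.1%, 95.4% and 92.9% of V joins without and 29.1%, 35.3% and 31.1% with treatment. The middle part, with 40, held 3.42% ± 0.708 and 25.2% ± 2.07 (SD, n = 3). The farthest part, with 36, held 2.02%, 1.47% and 2.86% without and 43.3%, 40.3% and 45.3% with treatment. The farthest part thus passed from the least to the most used of the 3, and none of these pairs of groups overlapped.

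Whole parts of the locus were also fitted with limma on log2(junctions per 100000 + 1). The nearest V part rose by 0.71 (SE 0.127, adjusted p = 5.15e-05), the middle part by 5.17 (SE 0.240) and the farthest part by 6.49 (SE 0.239). Of the 11 zones fitted 9 rose (81.8%) and 2 fell (18.2%), the latter being Ighd1-1 and the interval between Ighd1-1 and the first V. This interval, which holds IGCR1, carried 568 ± 19.8 and 188 ± 48.9 joins per 100000, and 98.3% ± 1.34 and 94.3% ± 5.01 of them lay within 5 kb of Ighd1-1. Per 100 Ighd1-1 joins there were 0.802 ± 0.0335 and 0.616 ± 0.153 joins in it, which overlap. Junctions in the JH zone stood at 458 ± 14.1 and 702 ± 34.4 per 100000 (log2 0.61, SE 0.165, adjusted p = 0.00207). With repeated reads counted once the JH zone did not pass (log2 0.27, adjusted p = 0.140) and neither did the zone downstream of JH4 (log2 1.08, adjusted p = 0.0516), while the nearest V part rose by 0.29 (SE 0.108, adjusted p = 0.0185). Joins in the Igk light-chain region stood at 83.9 ± 15.9 and 66.5 ± 34.1, with libraries that overlap. On the rest of chromosome 12 there were 12, 17 and 16 rows in treated and 3, 1 and 7 in untreated libraries. Per 100000 this zone stood at 2.28 ± 1.64 without and 54.8 ± 0.462 with treatment (log2 4.22, SE 0.469). All other chromosomes together stood at 151 ± 35.7 and 475 ± 82.5 per 100000 (log2 1.66, SE 0.230).

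The V segments next to D lost most of their share. Ighv5-2 (VH81X), the first functional V segment at 96.3 kb from Ighd1-1, took 46.5%, 44.3% and 44.0% of V joins without and 2.81%, 3.70% and 4.73% with treatment. As junctions per 100000 rows it stood at 792, 834 and 883 without and 252, 333 and 425 with treatment. It was lower in every treated library by both measures, with log2 changes of -3.57 within V joins (SE 0.196, limma voom adjusted p = 1.05e-11) and -1.31 per 100000 (SE 0.207, adjusted p = 1.74e-05).

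Its neighbours fell within V joins as well. Ighv2-2, of the Q52 family, took 17.2%, 20.4% and 18.4% of V joins without and 1.53%, 3.38% and 2.15% with treatment (log2 -2.99, SE 0.273). Ighv5-4 went from 7.56% ± 0.536 to 0.879% ± 0.263, Ighv2-3 from 5.48% ± 0.584 to 0.910% ± 0.749, Ighv5-6 from 3.10% ± 0.604 to 0.633% ± 0.379 and Ighv5-12 from 2.29% ± 0.197 to 0.754% ± 0.0717. Ighv5-1, a pseudogene and the V nearest to D, went from 2.17% ± 0.514 to 0.504% ± 0.248. Each of these 6 passed the test within V joins. Ighv5-9 had too few joins to test, with 17 rows over the untreated and 25 over the treated libraries.

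Per 100000 rows the same segments moved less. Ighv2-2 fell from 349 ± 49.4 to 211 ± 84.7 with 1 treated value above 1 untreated value (log2 -0.73, adjusted p = 0.0328), and Ighv5-4 from 141 ± 9.63 to 78.9 ± 23.7 (log2 -0.80, adjusted p = 0.0434). Leaving out untreated replicate 2 or 3, or treated replicate 1 or 3, took the adjusted p of Ighv2-2 past 0.05, and leaving out untreated replicate 2 or any 1 treated library did so for Ighv5-4. Fitted on the 6 parent libraries alone the adjusted p was 0.0621 for Ighv2-2 and 0.0541 for Ighv5-4, with the run as a block it was 0.0688 for Ighv5-4, and after thinning to the smallest library 0.0524 and 0.0616 for Ighv2-2 and Ighv5-4. With repeated reads counted once both passed, at log2 -1.18 (adjusted p = 0.0020) and -1.25 (adjusted p = 0.00336). Ighv2-3 stood at 82.6, 113 and 113 without and 101, 137 and 6.91 with treatment, where treated replicate 3 was low, and did not pass (adjusted p = 0.136). It passed without treated replicate 2 (log2 -2.01) and with repeated reads counted once (log2 -1.56, adjusted p = 0.0324). Ighv5-12, with 42.1 to 43.3 and 60.8 to 73.2, lay above in every treated library but did not pass either (log2 0.68, adjusted p = 0.136).

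**Figure D4:**
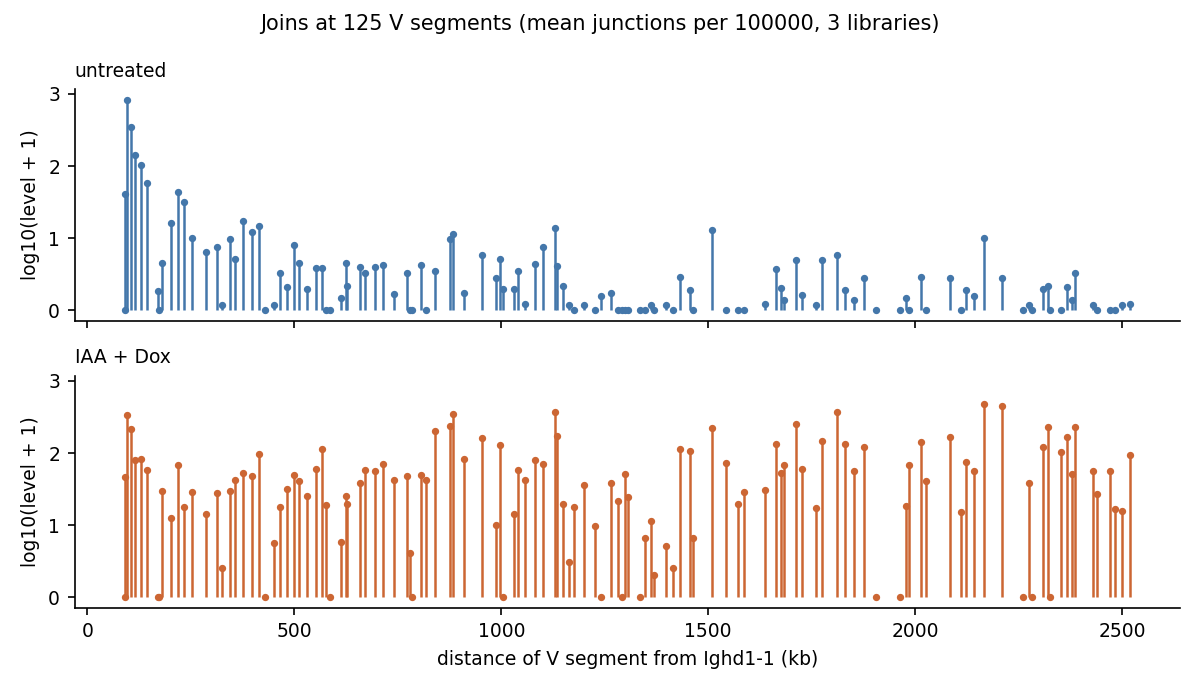
Mean level of each of 125 V segments as log10(junctions per 100000 rows + 1), against its distance from Ighd1-1 (kb), in untreated (top) and treated (bottom) libraries, n = 3 each. The untreated profile is highest at the D end, where Ighv5-2 stands at 836, and the treated profile has peaks along the whole region, with Ighv8-12 at 482 and Ighv1-70 at 453.

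A few far V segments went from low levels to levels above the 336 ± 86.7 of Ighv5-2 in treated cells. They were 1 of 40 in the middle and 3 of 36 in the farthest part, and the others stayed below it. Ighv8-12, 2166 kb from Ighd1-1, stood at 16.5, 2.84 and 7.39 junctions per 100000 without and 517, 537 and 390 with treatment. Ighv1-70, of the J558 family and 2210 kb away, stood at 1.44, 0 and 3.98 without and 517, 342 and 501 with treatment. The treated libraries lay far above the untreated ones, at log2 changes of 6.00 (SE 0.557, adjusted p = 7.56e-08) and 8.36 (SE 0.743, adjusted p = 5.39e-08). Both were named for their treated level, and Ighv1-70 reached the test only through the treated libraries, so its p is a description. In treated cells Ighv8-12 and Ighv1-70 made 5.36% ± 0.886 and 5.05% ± 1.08 of V joins, against 3.75% ± 0.963 for Ighv5-2, and these 3 ranges of values overlap or touch.

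In the middle and farthest parts several V segments had 0 rows in the untreated libraries of the parent line. Ighv1-75, 2352 kb from Ighd1-1, had 0 rows in all 3 untreated libraries and 101, 92.7 and 117 per 100000 in the treated ones. Against the limit of 3 rows over the whole untreated group, this was at least 157-fold higher. By the same limit V116262231, a V named by the position of its junction cluster (chr12:116262231), was at least 107-fold higher. Ighv8-9 was at least 96.3-fold higher, Ighv1-82 at least 88.9-fold and Ighv1-25, a pseudogene, at least 81.5-fold. Ighv1-85, the last segment of the locus, had 1 row in the untreated and 75 in the treated libraries, a ratio of levels of 417 with an exact 95% counting interval of 72.5 to 16674. Ighv6-3, in the middle part, had 3 and 68 rows, a ratio of 126 with an interval of 41.3 to 626. Such low counts bound these folds loosely. The intervals also treat repeated reads as separate rows and leave out the spread between libraries. All of these segments reached the test only through treated libraries, so their folds are a description.

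Further risers lay along the whole middle and far region. Ighv1-58, Ighv1-73, Ighv1-74, Ighv1-76 and Ighv1-78, all J558, went from 0.907 to 2.27 on average to 119 to 229 per 100000, with log2 changes of 7.21 to 7.95. They were named because the groups do not overlap, and all 5 reached the test only through treated libraries, so these changes are a description. Ighv8-8, Ighv1-54, Ighv1-12 and Ighv6-6, given next, also reached the test only through treated libraries. Ighv8-8 stood at 2.87, 7.81 and 3.98 without and 348, 371 and 387 with treatment, and Ighv1-54 at 3.98 ± 2.42 and 253 ± 49.3. In the middle part the highest treated level belonged to V115850457, a V named by the position of its junction cluster (chr12:115850457), with 12.6 ± 1.72 and 369 ± 130. Next came Ighv1-47 with 12 ± 5.31 and 221 ± 17.0, Ighv1-12 with 3.08 ± 4.73 and 172 ± 51.4 and Ighv6-6 with 4.94 ± 5.18 and 161 ± 59.996. Within the nearest part, Ighv12-3 at 884 kb rose from 10.5 ± 9.82 to 347 ± 61.4, Ighv13-2 at 876 kb from 8.84 ± 3.30 to 236 ± 34.1 and Ighv3-8 at 840 kb from 2.56 ± 3.27 to 199 ± 94.8. These 3 lie at the far edge of that part, so the nearest part held both falling and rising segments.

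Over all segments per 100000 rows, 68 of 81 tested changed (84.0%), of which 64 rose (79.0% of those tested) and 4 fell (4.94%), with a median log2 change of 5.03. The 4 that fell were Ighd1-1, Ighv5-2, Ighv2-2 and Ighv5-4, the latter pair with the limits given above. Of the 69 V segments tested, 46 passed the filter of 10 rows in 3 libraries only through treated libraries, so a rise was built into their selection and the count is a description. With median-of-ratios sizes the split was 26 up and 28 down and the median log2 change 0.48, and among the V segments named above Ighv1-47 (log2 -0.15), Ighv5-12 (log2 -3.76) and Ighv5-1 (log2 -4.30) then changed sign, as did the named D segments other than Ighd1-1. Within V joins alone, 47 of 69 rose (68.1%) and 9 fell (13.0%), and the 9 that fell all lie in the nearest part.

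Summed over all members, the share of V joins moved from the families next to D to those farther away. Ighv5, which lies in the nearest part, went from 62.3% ± 2.87 to 8.51% ± 2.04 and Ighv2 (Q52) from 27.9% ± 2.51 to 4.58% ± 1.58 (SD, n = 3). Ighv1 (J558), the largest family with 60 members, went from 2.92% ± 1.66 to 42.8% ± 2.57 and Ighv8 from 0.872% ± 0.270 to 13.1% ± 1.52. Among the 10 V segments nearest to D with joins, 8 were tested, and all 8 fell within V joins with a median log2 of -3.02, against 3.10 over all 69 V. Of the Ighv5 family 0 of 9 tested rose and 5 fell within V joins, and of Ighv2 0 of 7 rose and 4 fell. Only 1 of the 27 Ighv1 and 1 of the 5 Ighv8 members tested would have passed the filter on untreated libraries alone, so no count of risers is given for these families.

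Annotated pseudogenes kept a similar share, 3.59% ± 0.408 and 4.39% ± 1.16, with libraries that overlap. In rows per 100000 4 of the 5 tested rose, as did 56 of all 69 tested V segments. Only 2 of these 5 and 23 of these 69 would have passed the filter on untreated libraries alone, so both counts are a description. In the nearest part, the 29 V segments with a CTCF core held 92.5% ± 1.96 and 22.5% ± 3.06 of V joins, and the 20 without one held 2.00% ± 0.670 and 9.32% ± 0.664. This split by the core was made after the values were known, and it also follows distance, since Ighv5 and Ighv2 lie closest to D.

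**Figure D5:**
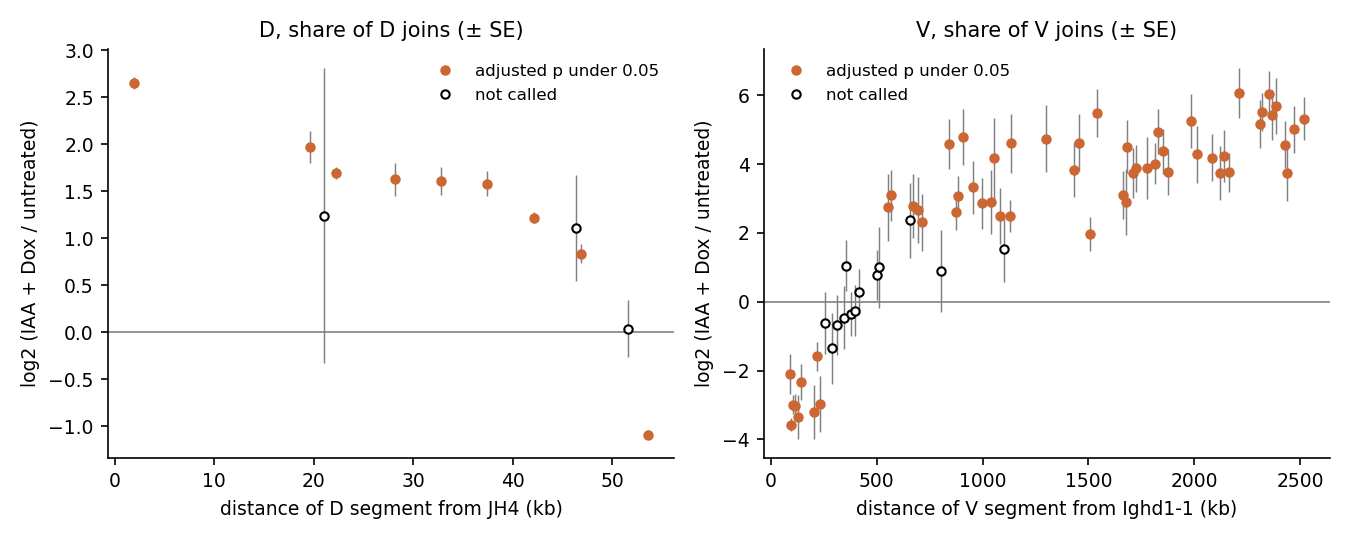
Log2 change (IAA plus Dox over untreated, limma voom, bars ± SE) of the share of D joins against distance from JH4 (left) and of the share of V joins against distance from Ighd1-1 (right); filled points pass an adjusted p of 0.05. D changes decline from 2.65 at Ighd4-1 to -1.09 at Ighd1-1, and V changes run from -3.57 at Ighv5-2 to 6.07 at Ighv1-70.

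Reads across V joins also show which D had been used, where a run of at least 8 bases matched a single D, which held in 69.2% ± 1.71 of untreated and 69.6% ± 1.37 of treated V joins. Ighd1-1 was in 51.0%, 51.7% and 49.6% of these without and in 38.7%, 37.2% and 44.8% with treatment, a difference of -10.5 points with no overlap (exact permutation p = 0.1, n = 3 per group). Ighd2-3 went from 24.1% ± 0.455 to 36.5% ± 2.5, also without overlap. Ighd4-1 was in 2.10% ± 0.440 and 1.2% ± 0.908, so it was scarce inside V joins in both groups while it made up 12.2% of treated D joins. Ighd4-1 is a short D, and how often the run of 8 bases misses it was not tested. With the 3 libraries of a group summed, the Ighd1-1 share inside V joins of the nearest part was 49.3% of 5510 reads without and 40.1% of 1572 with treatment. In the middle part it was 64.2% of 243 and 42.8% of 1288 reads, and in the farthest part 76.0% of 154 and 38.9% of 2263. The untreated share was thus higher in the parts farther from D and the treated share was similar in all of them, and this difference between parts was not tested. These summed reads include repeated sequences, and the spread between libraries was not taken for the parts.

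V joins in a reading frame shared by V and JH were 36.2%, 33.4% and 36.4% of untreated and 28.2%, 29.4% and 32% of treated V joins whose frame could be read. All treated libraries lay below all untreated ones (difference -5.46 points, exact permutation p = 0.1, n = 3 per group), and the groups differ in the V segments that enter this share. Bait and prey alignments were never more than 30 bases apart in any library, so V joins with longer stretches between V and JH4 are missing from all of these values.

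The 3CBEdel line, which carries the same alleles but lacks the CTCF sites at the 3′ end of the locus, was treated in the same way with 3 libraries per group. Its V share was 1.81% ± 0.120 without and 6.58% ± 0.949 with treatment, so the effect was 2.51 points larger in the parent line. The exact permutation p of this difference was 0.08 over 400 relabelings of line within treatment, above the threshold of 0.05. In the limma voom fit 0 of 81 segments (0%) had a treatment effect that differed between the lines, with 13 at an unadjusted p under 0.05. By limma trend 0 were called as well, with 11 at an unadjusted p under 0.05. Most other settings also called 0, and a few called 1 to 6. With the filter of 10 junctions in each parent library 3 of 16 passed, namely Ighd4-1 (difference of log2 changes 0.29, parent minus 3CBEdel), Ighd1-1 (-0.24) and Ighv5-12 (2.06), and with median-of-ratios sizes 6 passed, Ighd1-1 (-1.44) and Ighv5-2 (-1.68) among them. The log2 changes per 100000 in the parent and 3CBEdel lines were 2.52 and 2.24 for Ighd4-1, -1.21 and -0.98 for Ighd1-1 and -1.31 and -0.82 for Ighv5-2. Those of Ighv1-70 were 8.36 and 5.90 (adjusted p of the difference 0.325). Whether single segments differ between the lines thus depends on the setting.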

How the data were processed

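The 6 parent libraries and 6 of the 3CBEdel line were made by HTGTS-V(D)J-seq of genomic DNA from a JH4 bait. An enzyme blocking step was left out, per the labels. The 3CBEdel libraries entered the comparison of lines, the filter, the shared estimate of the spread and the clusters of junctions. With the parent libraries alone, 69 segments were tested per 100000 rows, of which 56 rose and 2 fell. Reads were aligned to mm9 with Bowtie2 (version not given in the sources used here), per the submitters' processing notes. The files the authors deposited list 1 row per read with its junction, and their duplicate column is 0 throughout. Other samples of the series were not used here.

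Rows were tabulated by junction position and orientation within 100 bp of each segment. Positions came from the annotation of NCBIM37 for 116 V segments and from clusters of at least 30 junctions for 9, of which 6 were named by their neighbours and 3 stay named by position. Levels are junctions per 100000 rows. Related V segments can share sequence, and the deposited alignment decided between them. The voom method of limma 3.58.1 (R 4.3.3) was applied to segments that reached 10 junctions in 3 or more of the 12 libraries, all of which shared 1 estimate of the spread, with Benjamini-Hochberg adjustment over all segments of a fit and a threshold of 0.05. For single values, all 20 ways to relabel 6 libraries gave an exact permutation p (two-sided). Intervals and limits cover counting error only.

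Named were every D at 1% of D joins, 8 V segments near D, Ighd4-1, Ighd1-1, the top 4 V segments of each part in treated cells, and up to 15 risers and 10 fallers among called segments with libraries that do not overlap and a mean of at least 20. The samples, segments and lists were chosen with earlier results of these data known. On simulated counts for this comparison over 81 segments, 10 of 20 changed segments were called, including 6 of 6 with at least 10 expected junctions, and 1 of 61 unchanged ones. The simulated spread was a fixed value not estimated from these libraries, and as many segments rose as fell. Most real calls were rises, so these counts do not give the rate of false calls in the real fits.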

Additional observations from a re-analysis of the deposited data

How the results depend on the processing

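Per 100000 rows the 68 calls became 110 with no filter, 14 when 10 junctions were required in each parent library and 36 after thinning to the smallest library. They were 59 to 68 when 1 library was left out. Within V joins the 56 calls became 5 under the filter on each parent library and 36 after thinning, and were 48 to 57 with 1 library left out. These filters and thinning leave fewer segments or rows to test. The 0 segments that differed between the lines became 1 with the replicate block, 3 with the filter on each parent library (Ighd4-1, Ighd1-1 and Ighv5-12), 6 with median-of-ratios sizes (Ighd1-1, Ighd2-3, Ighd2-4, Ighd2-7, Ighd2-8 and Ighv5-2), and 0 to 1 with 1 library left out. Calls within D joins were 9 to 13 and zones called 9 to 11 in the alternatives run, and the V share, the inverted share, the median distance, the effective number, the Ighd1-1 share inside V joins, the in-frame share and the line difference kept their sign in the alternatives run. The other values with an exact p were not run under alternatives. Counting repeated reads once gave 61 calls per 100000.

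With median-of-ratios sizes the log2 change per 100000 turned to -1.94 for Ighd4-1, -2.65 for Ighd3-2, -2.89 for Ighd2-8, -2.93 for Ighd2-7, -2.96 for Ighd2-6, -3.01 for Ighd2-5, -3.36 for Ighd2-4, -3.75 for Ighd2-3, -4.30 for Ighv5-1, -3.76 for Ighv5-12 and -0.15 for Ighv1-47. Segments with no call also changed sign: Ighv5-1 to -0.21 with repeated reads counted once, and Ighv5-6 to 0.12 and 0.089 with the replicate or run block. With 1 library left out, Ighv5-1 ranged from -0.21 to 0.42, Ighv2-3 from -2.01 to 0.27 (0.27 without treated replicate 3) and Ighv5-6 from -0.49 to 0.44. Same-numbered libraries correlated in their deviations at 0.146, 0.206 and 0.0063, so the numbers were not taken as pairs, and the replicate block gave 68, 10 and 57 calls per 100000, within D joins and within V joins. With that block the adjusted p of Ighv5-4 per 100000 was 0.109. Not every library correlated best with its own number. Depth limits the untreated libraries at far V segments, where most hold 0 to a few rows.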
